A study of Mus musculus with 4 samples.

Results

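In mouse mammary cells, 1984 open chromatin sites were listed in both libraries made after dexamethasone (Dex, a synthetic glucocorticoid) and in neither library made without it. Open chromatin had been mapped by DNase-seq, in which the nuclease DNase I cuts DNA that is accessible in the nucleus. DNase-seq is the name in the sample titles; the extraction text speaks only of nuclei that were sonicated and names no DNase I digestion, and which description holds could not be settled from the lists. The region lists of the 4 libraries were merged wherever regions overlapped or touched, which gave 103288 sites. The 1984 sites, or 1.92% of the total, hold a region from the Dex library and a region from the Dex plus estradiol (Dex+E2) library, and none from the untreated or the estradiol (E2) library. They are called Dex-listed sites below as a name for this pattern of listing. They were selected on their presence in these same lists, so their levels are given as a description. Each condition had 1 library, and no test of a treatment was possible.

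Dex acts through the glucocorticoid receptor (GR). Binding of the hormone brings GR into the nucleus, where it attaches to DNA at glucocorticoid response elements and recruits remodelling complexes that open chromatin locally. In mammary cells much of this binding is known to occur at chromatin that is accessible before hormone, and a smaller part at closed chromatin. Estradiol acts in a similar way through the estrogen receptor (ER), which recognises a different element.

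All 4 groups were 7438 cells, a mouse mammary line that carries GFP-GR and Cherry-ER, both under a promoter regulated by tetracycline. The drug was withdrawn 24 h before hormone in every group, the untreated one included, to induce both tagged receptors, whose levels were not measured here. The groups received no hormone, 100 nM Dex, 100 nM E2, or 100 nM of each, for 30 min, with 1 library each. The lists held 65879 regions for the untreated, 51251 for the Dex, 35496 for the E2 and 50061 for the Dex+E2 library. Read totals were not used here. Each region carries the authors' maximum tag density, a signal scaled per library in which 1 tag is worth 0.200 to 0.255. Positions are those of the deposited lists in mm9. The sequences of the sites and the genes near them were not analysed here.

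Most Dex-listed sites were weak. Their maximum density had a median of 8.08 after Dex (quartiles 6.12 and 11.8, highest 115) and of 7.49 after Dex+E2 (5.67 and 10.4, highest 80.3). At the summit of the median site 33 tags had been counted in each of these libraries. Sorted by the smaller of both densities, 327 sites lay under 5, 1269 between 5 and 10, 329 between 10 and 20, 53 between 20 and 40, and 6 at 40 or more. For sites found in all 4 lists the medians were 30.1 without hormone, 14.7 with Dex, 10.2 with E2 and 15.4 with both. The typical Dex-listed site was therefore about as dense as the median region of the whole Dex list (7.84) and less dense than the sites open in every condition.

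A site counts as absent when the authors' caller did not list it, and such a site may still have been partly accessible. The lowest Z scores in the lists were 4.95 untreated and 5.26 after E2. Just inside the rule lay chr2:25652436-25652892 (7.10 after Dex, 5.22 after Dex+E2), chr8:97573517-97574025 (7.84 and 5.44) and chr1:117092316-117092679 (4.65 and 4.54), whose Dex+E2 regions all had a Z score of 5.15. Just outside it lay chr13:52833108-52834126 (10.8 after Dex, 14.5 after Dex+E2), chr5:122680004-122680603 (9.55 and 7.49) and chr3:40490635-40491239 (11.5 and 9.53). These were left out because the untreated list held them at 6.12, 5.87 and 5.61, with Z scores of 4.96. Sites just inside were those with the lowest smaller Z score of both Dex libraries. Sites just outside were those with the lowest untreated or E2 Z score, whatever their density after Dex. The higher Dex densities of the latter are therefore not a like comparison.

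Only 59 of the sites reached a density of 20 in both libraries, the limit for a strong site used here, and 162 reached it in at least 1 of them. The densest were on chromosomes 4, 12, 8, 2, 17 and 18. chr4:59348435-59349795, at 115 (104.7 to 126) after Dex and 80.3 (72.2 to 89.1) after Dex+E2, ranked 114 among all Dex regions and 449 among all Dex+E2 regions. Here and below such intervals are exact Poisson 95% intervals on the tags at the summit and cover counting error only. This site thus stood near the top of both lists, although it was listed neither in untreated cells nor after E2.

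Among the 20 densest sites, 14 were denser after Dex and 6 after Dex+E2 in deposited densities. Of all sites listed in both libraries at a geometric mean density of 30 or more, 40.5% were denser after Dex. In tags the order turned at chr2:22507293-22507916 (228 after Dex, 234 after Dex+E2) and chr5:123500753-123501578 (130 and 138). The site chr12:114264651-114265940 had 47.3 (40.8 to 54.4) after Dex and 28.4 (23.6 to 33.8) after Dex+E2. At chr17:32116639-32117599 the densities were 45.3 and 28.1, and at chr19:27386823-27387989 they were 44.8 and 30.2. In each of these pairs the Dex interval lay above the Dex+E2 interval. The opposite order held at chr8:129330987-129331941, with 54.1 (47.2 to 61.7) after Dex and 69.9 (62.3 to 78.1) after Dex+E2. Densities were nearly equal at chr16:31601111-31601931 (36.7 and 38.1), chr11:118846597-118847561 (32.6 and 33.6) and chr5:123500753-123501578 (31.8 and 31.3). Intervals lay apart with Dex higher at 8 of the 20 and with Dex+E2 higher at 1, where 9.55% and 16.4% of all sites listed in both libraries at a geometric mean density of 30 or more had such gaps.

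**Figure D1:**
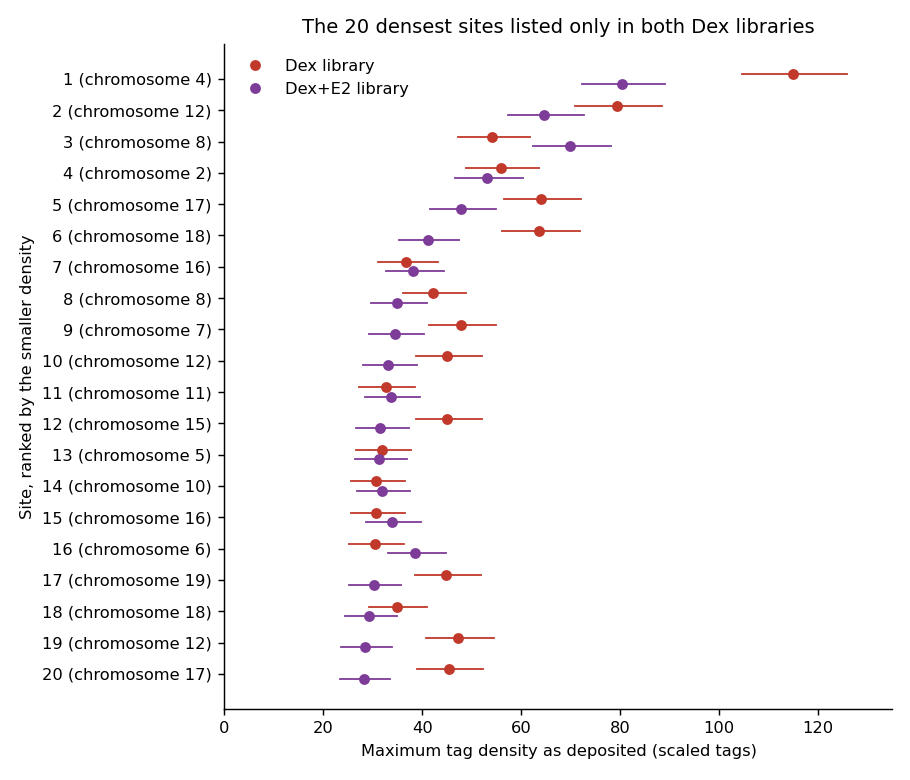
Maximum tag density (horizontal axis, scaled tags as deposited) of the 20 densest sites listed only in both Dex libraries, ranked from top to bottom by the smaller of both densities; points are the single Dex and Dex+E2 libraries and lines are exact Poisson 95% intervals on the summit tags. In deposited density Dex was the higher of both at 14 of the 20 sites, and the leading site on chromosome 4 had 115 against 80.3. Tags gave the other order at chr2:22507293-22507916 and chr5:123500753-123501578.

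Among the 20, chr2:22507293-22507916, differed from the rest in its scores. Its densities were 55.8 after Dex and 53.1 after Dex+E2, but its Z scores were 8.24 and 16.4, while those of the other 19 ran from 27.8 to 112. The ratio of Z score to density, with medians of 1.08 and 1.09 over all Dex-listed sites, was 0.148 and 0.309 here, the lowest of any of them in both libraries. How the authors computed the Z score is not stated, and the source of this difference was not tested.

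Whether a Dex site was found again in the Dex+E2 library depended steeply on its density. Of 16765 sites that were in the Dex list and in neither the untreated nor the E2 list, 1984 (11.8%, Wilson 95% interval 11.4 to 12.3) were also in the Dex+E2 list. This share was 3.38% for sites under a density of 5 and 7.51% from 5 to 7.5, then 32.6% from 7.5 to 10 and 74.1% from 10 to 15. From 15 to 20 it was 96.2% (126 of 131 sites), and at 20 or more it was 100% (128 of 128, 97.1 to 100). The weak majority of sites seen after Dex was therefore mostly not listed again, and the strong minority was listed again without exception.

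Seen from the Dex+E2 list, the share also listed after Dex was higher at higher density as well, from 5.33% under 5 to 54.4% between 10 and 15, 70.7% between 15 and 20 and 97.9% (93 of 95) at 20 or more. Dex sites missing from the untreated and Dex+E2 lists were looked up in the E2 list, which is shorter. They were found there in 2.50% of cases under a density of 5, 2.49% from 5 to 7.5, 2.21% from 7.5 to 10 and 6.88% (11 of 160) from 10 to 15. From 15 to 20 only 10 such sites were left, of which 5 were in the E2 list. These shares leave out every site that the Dex+E2 list had found, which at higher density is most of them, so they are not set against the shares above.

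**Figure D2:**
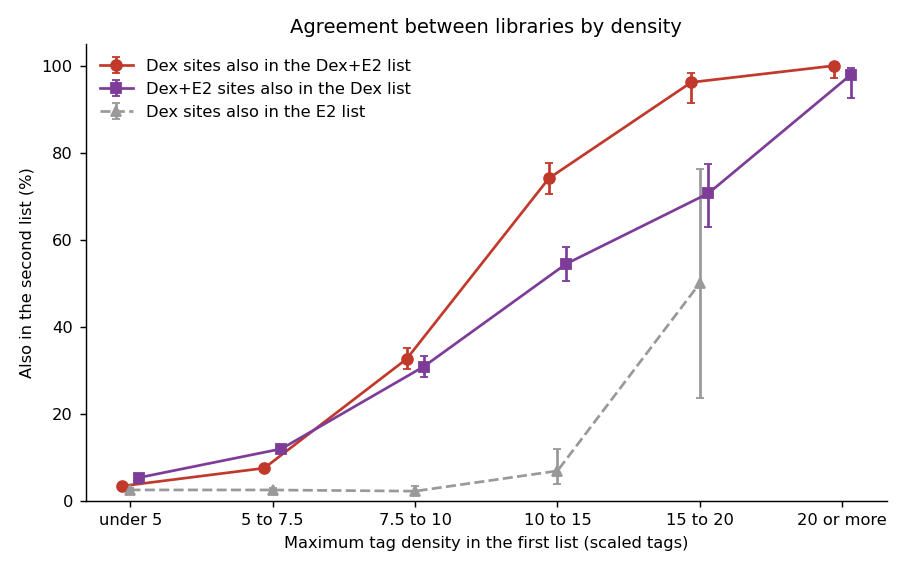
Share of sites of a first list that were also in a second list (vertical axis, %), by the maximum tag density in the first list (horizontal axis, scaled tags), with Wilson 95% intervals; sites in the Dex or Dex+E2 list are those in neither the untreated nor the E2 list, and the dashed line shows Dex sites missing from the untreated and Dex+E2 lists. Agreement between both Dex libraries climbs from 3.38% to 100% seen from the Dex list, while the dashed line stays under 7% up to a density of 15 and rests on 10 sites beyond it.

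Within a site the Dex and Dex+E2 regions lay close together. Joining only regions that overlap or touch limits how far apart they can lie, also for sites in all 4 lists. The midpoints of the Dex and Dex+E2 regions lay a median of 47.5 bp apart, and within 100 bp at 76.6% of the sites, against 43.5 bp and 78.3% for sites in all 4 lists. At the 59 strong sites the median offset was 41 bp. The Dex region was a median of 552.5 bp wide and the Dex+E2 region 521 bp, and the strong sites were wider, at 896 and 844 bp. Merged, the sites had a median width of 619 bp, close to the 597 bp of the 1362 sites listed only in both E2 libraries and below the 1009 bp of sites in all 4 lists. Sites of the Dex library alone had a median width of 303 bp. A merged width spans the regions of every list that holds the site, so it tends to grow with the number of lists. By the Dex region alone, sites in all 4 lists had a median of 790 bp, against the 552.5 bp above.

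At dense Dex-listed sites the signal after Dex+E2 was lower than after Dex, whereas over all of them the median site had 33 tags in either library. In tags as counted, 936 of the 1984 sites had fewer after Dex+E2, 131 had equal numbers and 917 had more, with a median log2 ratio of 0. The authors' scaling gives a tag less weight in the Dex+E2 library, so in deposited densities 1259 sites (63.5%, 61.3 to 65.5) were lower and 725 higher, with a median log2 ratio of −0.11 (quartiles −0.39 and 0.11). The direction over all sites therefore rests on that scaling, and sites with equal tags count among the lower ones.

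Among the 95 sites with a geometric mean density of 20 or more, 71 were lower after Dex+E2 in density (74.7%, 65.2 to 82.4) and 67 in tags, with median log2 ratios of −0.30 and −0.19. For the 24 sites at 30 or more the medians were −0.40 and −0.29. Sites in all 4 lists lay on the other side of 0: at a mean density of 20 or more their median was 0.08 in density and 0.19 in tags, and 40.9% of 7183 were lower in density after Dex+E2. A scale that is constant within a library shifts these log2 ratios alike at both kinds of site, although the cut at 20 moves with it. Other differences between the libraries were not tested. Sites that the untreated library listed as well, but not the E2 library, had a median of −0.31 in density at 20 or more, with 134 of 155 lower. Where the E2 library listed the site as well, but not the untreated library, the median was 0.44, with 4 of 24 lower. The sign of the median in these groups thus went with listing after E2, which the rule for Dex-listed sites itself uses.

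Differences of 2-fold or more between both Dex libraries were rare. Dex+E2 was at least 2-fold lower at 53 Dex-listed sites (2.67%), against 0.881% of the 29066 sites listed in both libraries, and at least 2-fold higher at 33 (1.66%), against 2.05%. Counting intervals lay apart at 107 sites with Dex higher (5.39%, against 3.65% of all sites in both lists, whatever their density) and at 45 with Dex+E2 higher (2.27%, against 6.3%). At 5 sites that reached 20 in either library the ratio in favour of Dex was largest. At chr10:120653658-120654752 the density was 25.2 (20.6 to 30.6) after Dex and 9.76 (7.06 to 13.1) after Dex+E2. The other 4 were chr10:59441609-59442469 (22.0 and 8.62), chr15:37113651-37114769 (29.4 and 11.8), chr7:130190069-130190894 (28.7 and 11.8) and chr11:19748286-19749209 (26.2 and 11.6).

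Sites with the largest ratio in favour of Dex+E2 were led by chr2:35123158-35124142, with 13.7 (10.4 to 17.8) after Dex and 49.7 (43.3 to 56.7) after Dex+E2. This site lies 61 bp from a site found in all 4 lists. At chr17:28625130-28625928 the densities were 8.57 and 26.8, at chr9:21499123-21499908 they were 8.57 and 26.5, at chr2:25552286-25553100 they were 8.82 and 25.2, and at chr4:8866020-8866847 they were 9.55 and 26.8. All 5 were listed after Dex well below the density of 20 and well above it after Dex+E2. None was listed after E2 alone, so the deposited lists give no E2 value to set beside them.

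**Figure D3:**
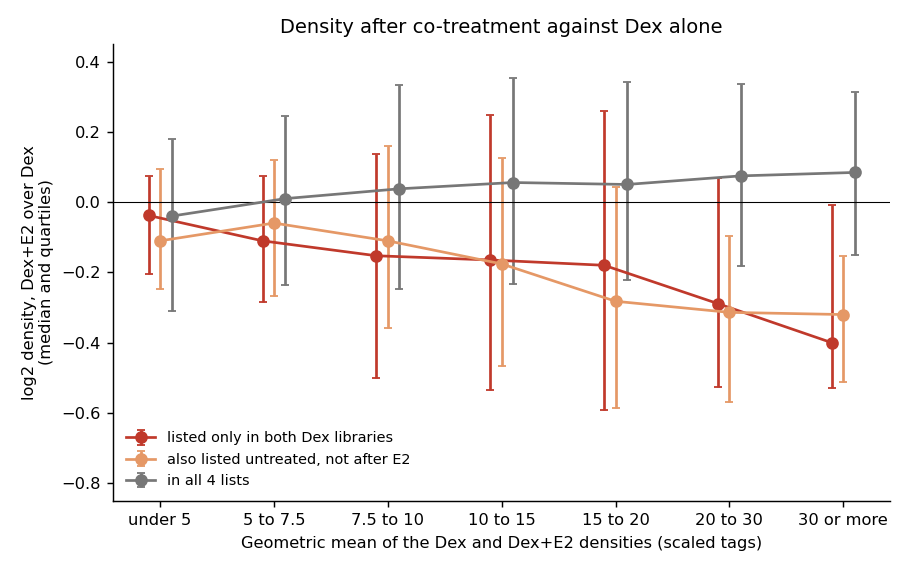
Median log2 ratio of the Dex+E2 over the Dex density (vertical axis; bars are quartiles over sites) by the geometric mean of both densities (horizontal axis, scaled tags), for sites listed only in both Dex libraries, sites that the untreated list holds as well, and sites in all 4 lists. The first group goes down to −0.40 at 30 or more and sites in all 4 lists stay between −0.04 and 0.08.

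The surroundings of the Dex-listed sites give a measure that the rule did not use directly, since sites in all 4 lists have densities in every library. Touching regions had been joined, however. A close neighbour thus counts only where none of its regions, untreated and E2 included, reached the Dex-listed site. Of the 20687 sites in all 4 lists, 250 lay within 2 kb of a Dex-listed site. Relative to the library medians, 59 of the 250 (23.6%, 18.8 to 29.2) were at least 2-fold higher after Dex than untreated, against 6.69% of all. In the comparison of Dex+E2 with E2, which shares no library with the former, 18 (7.20%, 4.60 to 11.1) were at least 2-fold higher, against 1.78%. Both held at 14 of them (5.60%, 3.36 to 9.18), against 1.38%. As a description of these libraries, the 3 shares next to Dex-listed sites thus lay above those of shared sites in general.

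The comparisons that isolate E2 were made for the same 250 sites. After E2, 36 (14.4%, 10.6 to 19.3) were at least 2-fold higher than untreated, against 7.89%, and this comparison has the untreated library in common with that of Dex. Comparing Dex+E2 with Dex, 3 (1.20%) were 2-fold higher, against 1.84%, and 1 (0.400%) was higher in both E2 comparisons, against 0.996%. Of 176 shared sites within 2 kb of the 1362 sites listed only in both E2 libraries, 11 (6.25%, 3.53 to 10.8) were higher in both E2 comparisons and 3 (1.70%) in both Dex comparisons. However, 36 of these 176 (20.5%, 15.2 to 27.0) were 2-fold higher after Dex than untreated, with an interval that overlaps that of the 23.6% near Dex-listed sites. A raised share for Dex over untreated was thus seen around both kinds of site. Dex+E2 over E2 was 2-fold higher at 5 of the 176 (2.84%, 1.22 to 6.48), and this interval also overlaps that of the 7.20% near Dex-listed sites. Near sites listed only in the untreated and Dex libraries, 1.60% of 750 were higher in both Dex comparisons.

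With distance the share near Dex-listed sites declined. It was 3.68% at 2 to 5 kb, 2.18% at 5 to 10 kb and 1.18% beyond 100 kb for shared sites higher in both Dex comparisons. Within 10 kb as a whole, 156 of 935 shared sites (16.7%) were 2-fold higher after Dex than untreated and 39 (4.17%) after Dex+E2 than after E2. Within 10 kb of sites listed only in both E2 libraries, these shares were 17.99% (127 of 706) and 2.69% (19 of 706). Of these 935, 99 (10.6%, against 4.23% of all shared sites) had deposited densities of at least 0.8 times the untreated value in each hormone library. They are called background-type sites as a label only, since this limit has no upper bound. Sites much denser with Dex are among them. An example is chr3:94717413-94718267, with 9.69 untreated, 52.7 with Dex, 9.60 with E2 and 61.0 with both. Without that type, 77 of 836 (9.21%) were higher after Dex, against 3.65% of all others, and 35 (4.19%) after Dex+E2 than after E2, against 1.55%. The share higher after E2 than untreated was then 4.78%, against 4.34%, where it had been 14.4%, against 7.89%, with that type included. This filter is set on the same densities as the comparisons and takes out sites with high hormone to untreated ratios by definition. The shares without that type are therefore shaped by the filter in part. Shared sites near those listed only in both E2 libraries were not filtered in this way.

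**Figure D4:**
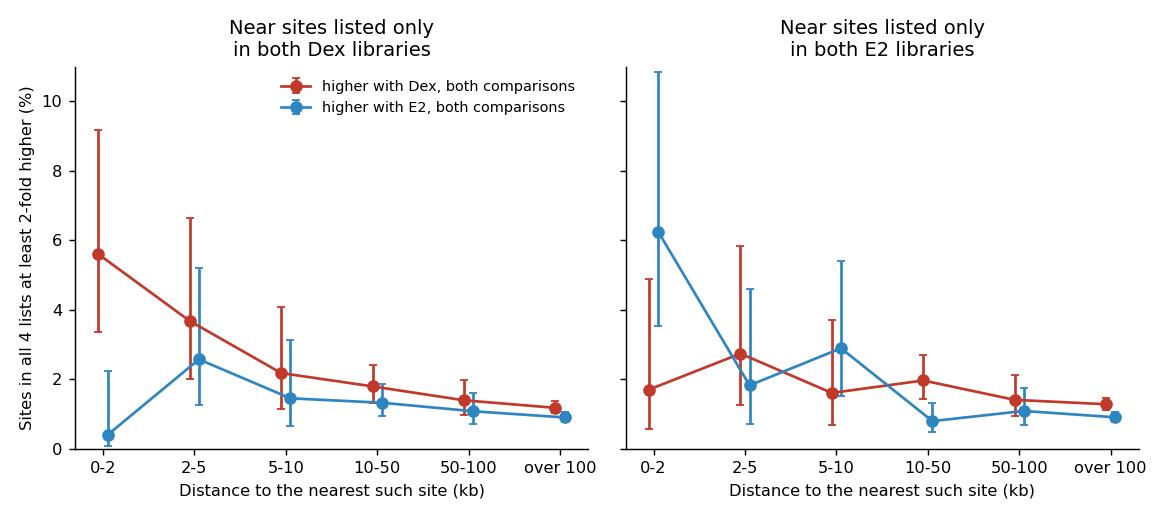
Share of sites found in all 4 lists (vertical axis, %) that were at least 2-fold higher relative to library medians in both comparisons isolating Dex (red) or both isolating E2 (blue), by distance in kb to the nearest site listed only in both Dex libraries (left) or only in both E2 libraries (right), with Wilson 95% intervals. Within 2 kb the red share is 5.60% on the left and the blue share 6.25% on the right.

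Single neighbours show these values. The site chr16:31598263-31599772, found in all 4 lists, lies 1339 bp from the strong Dex-listed site on chromosome 16 named above. Its density was 116 in untreated cells, 165 with Dex, 23.2 with E2 and 143 with both, or log2 1.54 and 2.02 for both Dex comparisons relative to the medians. On the other side of that Dex-listed site, chr16:31603116-31603995 had 148, 125, 43.4 and 109 in the same order, with log2 0.79 and 0.73. At chr3:94717413-94718267 the densities were 9.69, 52.7, 9.60 and 61.0 (log2 3.48 and 2.07), 1449 bp from a weak Dex-listed site at 11.8 after Dex and 9.30 after Dex+E2. At chr8:11270651-11271559 they were 33.2, 68.8, 10.00 and 57.9 (log2 2.09 and 1.94), 250 bp from a site at 8.57 and 11.8. The latter 2 Dex-listed sites were thus the weaker partner of a stronger site that was open in every condition. Over the 15 shared sites within 2 kb of the 59 strong Dex-listed sites, median log2 values relative to the library medians were 0.87 for Dex over untreated, 0.72 for Dex+E2 over E2 and −0.28 for E2 over untreated. At least 2-fold higher were 4 of the 15 in each Dex comparison. The library medians were 30.1 untreated and 14.7 with Dex, so such a value need not be a rise as deposited. The site at 0.87, chr17:32119245-32120509, had 73.7 untreated and 65.9 with Dex.

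Dex-listed sites lay a median of 18.8 kb from the nearest site in all 4 lists, and 230 of them (11.6%, 10.3 to 13.1) lay within 2 kb. The medians were 17.4 kb for sites listed only in both E2 libraries, 16.9 kb for sites missing only after E2 and 119 kb for sites of the Dex library alone, of which 5.43% lay within 2 kb. Over the other patterns with 2 or 3 libraries the median ran from 9.58 kb for sites missing only in the untreated list, of which 24.8% lay within 2 kb, to 46.8 kb for sites listed only with Dex and with E2.

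Some of them came in clusters. Within 10 kb, 149 (7.51%, 6.43 to 8.75) had another Dex-listed site, and within 50 kb 416 had (21.0%, 19.2 to 22.8). The corresponding shares of the 1362 sites listed only in both E2 libraries were 7.78% and 18.9%. Over all patterns they ran from 3.36% and 7.32% for the 833 sites missing only after Dex+E2 to 41.5% and 80.9% for the 20687 sites in all 4 lists. Sites missing only after E2 had 14.7% and 42.4%, and sites of the Dex library alone 14.2% and 47.1%. These shares were not adjusted for the number of sites in a pattern. Joined across gaps of up to 50 kb, 1568 sites stood alone, and there were 170 pairs, 19 groups of 3, 3 groups of 4 and 1 group of 7. Among the 59 strong sites, 9 (15.3%) had another Dex-listed site within 10 kb.

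The group of 7 lies on chromosome 9 and spans 64.0 kb. Its first site, chr9:48531496-48532139, had 22.0 after Dex and 11.6 after Dex+E2. Then follow chr9:48544335-48544993 (10.8 and 6.13), chr9:48545504-48546092 (11.02 and 7.49), chr9:48547133-48547769 (8.82 and 8.17) and chr9:48547837-48548732 (12.0 and 7.94), and further on chr9:48583546-48584230 (12.0 and 7.49) and chr9:48594778-48595539 (14.7 and 12.9). In deposited densities all 7 were denser after Dex than after Dex+E2, as were 63.5% of all Dex-listed sites. In tags, chr9:48547133-48547769 had 36 in each library and chr9:48594778-48595539 had 60 and 57. At every site of the group except chr9:48531496-48532139, the counting intervals of both libraries overlapped. Inside the span only 1 other region was listed in any library, a weak one after E2 at 4.60. The stretch is remote from shared open chromatin: chr9:48594778-48595539 was 189 kb and chr9:48544335-48544993 was 239 kb from the nearest site in all 4 lists.

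The 3 groups of 4 were set among other open sites. On chromosome 18, 24.7 kb held chr18:9485239-9487867 (63.7 after Dex, 41.1 after Dex+E2), chr18:9505696-9507093 (11.5 and 17.0), chr18:9507173-9508278 (35.8 and 22.7) and chr18:9508996-9509934 (34.8 and 29.3). Between them, 2 sites in all 4 lists were also denser with Dex: chr18:9502860-9505598 had 7.91 in untreated cells, 36.0 with Dex, 7.20 with E2 and 26.1 with both. On chromosome 17, chr17:28649115-28650620 (63.9 and 47.9) stood beside chr17:28652276-28653515, which had the same 63.9 after Dex and 54.0 after Dex+E2 but was listed untreated at 10.7. In a second group on that chromosome, 4 sites fell within 5.29 kb, from chr17:56239289-56241197 (14.9 and 14.3) to chr17:56243970-56244581 (7.35 and 6.35). Directly after it came chr17:56244718-56246956, not listed in untreated cells, with 20.6 after Dex, 9.20 after E2 and 44.5 after both.

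**Figure D5:**
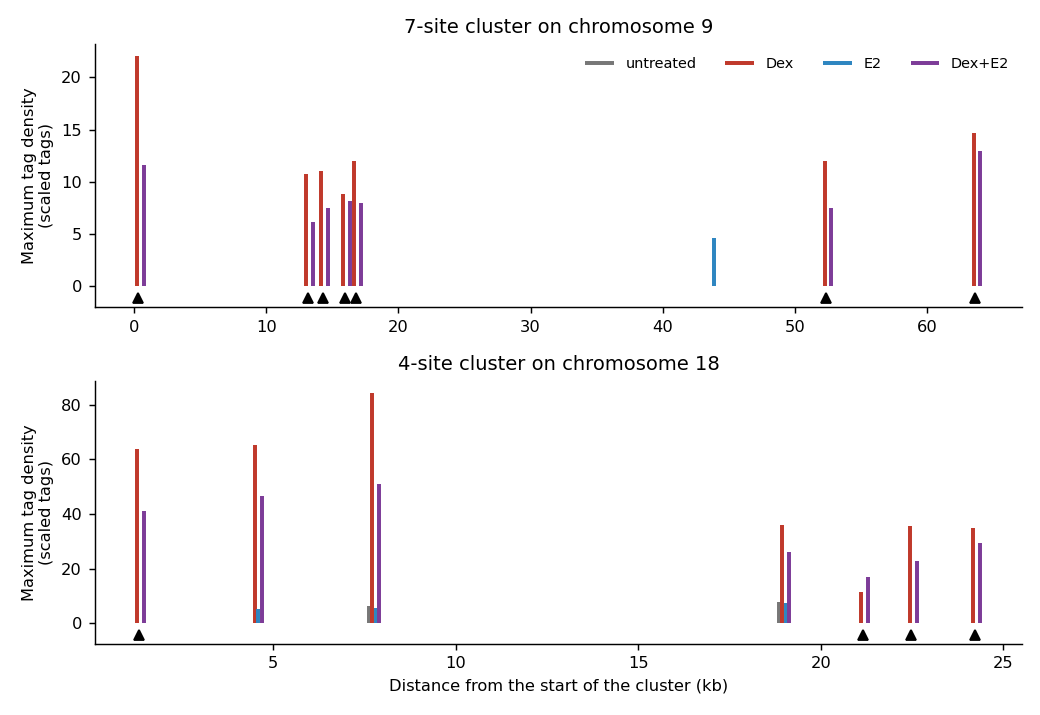
Maximum tag density (vertical axis, scaled tags) of every listed site within the 7-site cluster on chromosome 9 and a 4-site cluster on chromosome 18, by distance in kb from the start of the cluster; bars of 1 site are set side by side for the untreated, Dex, E2 and Dex+E2 libraries, and triangles mark the sites listed only in both Dex libraries. On chromosome 9 all marked sites are higher after Dex in deposited density, though not all in tags. On chromosome 18 sites listed in further libraries, up to 84.5 after Dex, lie between the marked ones.

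Dex-listed sites were found on all 20 chromosomes. Their share per chromosome had a Wilson interval above the share of sites in all 4 lists on 3 chromosomes and below it on 3, with no correction for the 20 comparisons. Chromosome 12 held 6.05% (5.08 to 7.18) of them, against 4.48%, and 7 of the 59 strong ones. Chromosome 10 held 6.60% against 4.94%, and chromosome 6 held 6.40% against 5.26%. Chromosomes 5 (4.94% against 6.13%), 11 (6.35% against 7.60%) and X (1.71% against 2.48%) held fewer. Against the share of all merged sites the order was the same for chromosomes 12 (5.01%), 10 (4.96%) and X (3.71%). For chromosomes 6 (5.93%) and 5 (5.87%) that share fell inside the interval of the Dex-listed sites, and chromosome 11 (5.81%) then held more, also inside its interval (5.36 to 7.51). Sites listed only in both E2 libraries had 6.53% of their number on chromosome 12, 4.99% on chromosome 10 and 1.40% on chromosome X.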

How the data were processed

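DNase-seq region lists of 4 libraries, 1 per condition, were used. The submitters' processing notes name mm9 as the build and CASAVA 1.8 as a tool without saying what it did. The aligner and region caller are not stated in the sources used here. Regions were called per library. Per the file headers, the deposited columns hold the maximum and average tag density per region, a signal that the authors scaled in each library to an unstated total. Below a density of 100, every maximum density (100%) was a multiple of a library-specific step to within 0.1 tags, and this step was read as 1 tag. The deposited Z score and p-value of a region refer to its own library, and neither was compared between libraries. Whether positions count from 0 or 1 is not stated.

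Overlapping or touching regions were joined, and a site took the highest value of its regions in each library. A site absent from a list did not pass the authors' threshold in that library. Ratios relative to library medians divide by each library's median over sites in all 4 lists. Sites named are the 20 with the highest smaller density, 5 at either end of the Dex+E2 over Dex ratio among those reaching 20, 3 on either side of the threshold, and those with most others within 50 kb; single neighbours and further cluster sites were chosen after their values were seen. The sites and lists were chosen with earlier results of these data known. A search for response elements and a placement at promoters needed an mm9 genome and annotation, and were not made. Merging and distances were tested on simulated data, where 100% of 3000 planted sites were recovered. Wilson and Poisson intervals have a level of 95% and cover counting error only, with tags taken as independent. Software was Python 3.11.15 with pandas 2.3.3, NumPy 2.4.6, Matplotlib 3.10.9 and SciPy 1.17.1.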

Additional observations from a re-analysis of the deposited data

How the results depend on the processing

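The 1984 sites became 700 when a Z score of at least 8 was required in both Dex lists and 8008 when the untreated list was ignored. They numbered 1943 with regions within 150 bp joined, 1653 with no untreated or E2 region within 1 kb, 1833 with lists of equal length, 1699 with 50% reciprocal overlap and 2355 without the E2 list. Strong sites (59) became 93 with densities scaled by library medians and 162 when either library sufficed. The median log2 ratio of Dex+E2 over Dex was −0.11 for average densities, −0.18 relative to the medians, −0.30 at strong sites and 0 in tags. The share with another such site nearby was 4.49% within 5 kb, 21.0% within 50 kb, 15.3% for strong sites and 6.79% with regions within 150 bp joined. Neighbouring shared sites 2-fold higher after Dex made up 23.6% within 2 kb, 11.1% within 50 kb, 14.1% by average density, 2.46% as deposited (against 0.551% of all shared sites) and 9.21% without background-type sites. For Dex+E2 over E2 they made up 7.20% within 2 kb, 2.84% within 50 kb and 18.6% as deposited (against 13.5%). The settings that ignored the untreated or the E2 list, took either library, used tags or left out background-type sites were chosen after seeing the data. Motif and promoter alternatives were not run. No paired analysis was possible because each condition had 1 library. The summit of a typical site held 33 tags, which limits single ratios.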
